A study of Mus musculus with 16 samples.

Results

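The constitutive proteasome subunits are the genes of the particle that degrades ubiquitin-tagged proteins. They were taken by symbol from the deposited tables: Psma1 to Psma7 and Psmb1 to Psmb7, which make up the 20S core, and Psmc1 to Psmc6 and Psmd1 to Psmd14, which belong to the 19S cap. This gave 34 of the 55450 genes in the tables, 14 for the core and 20 for the cap. The list has a gap in what it covers, because other 19S components such as Adrm1 and Sem1 carry other symbols and are given with the neighbouring genes. It also holds Psmd5, Psmd9 and Psmd10, which are chaperones of cap assembly and are not part of the finished cap.

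RNA was sequenced from cultured chondrocytes, the cell type of cartilage, taken from joints of mice and kept at 3% oxygen in medium with 10% serum. The design compared 2 stimuli used to induce cellular senescence, bleomycin and doxorubicin, with the inflammatory cytokine interleukin-1 beta (IL-1β) and with vehicle. There were 4 libraries in each of 4 groups, 16 in all. Bleomycin cells had 4 U/mL hyaluronidase for 4 h without serum, then 50 μg/mL bleomycin for 24 h, then 5 days in fresh medium. Doxorubicin cells were held in 50 nM drug for 5 days with medium renewed every 48 h. IL-1β cells received 1 ng/mL for 24 h, and the protocol names an equal volume of PBS as the matching control. No separate control with hyaluronidase or with 5 days of culture is named, so time in culture cannot be told apart from either drug, nor hyaluronidase from bleomycin. Strain, sex and age of the mice are not given in the sources used here. Nothing states that the 4 libraries of a group came from separate animals or cultures, so each p-value measures the spread between these libraries, which may be technical.

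In the 20S core, 4 stacked rings enclose the chamber in which proteins are cut: the outer rings are built from the α subunits (Psma genes) and gate the entrance, and the inner rings are built from the β subunits (Psmb genes). Psmb6, Psmb7 and Psmb5 carry the caspase-like, trypsin-like and chymotrypsin-like active sites. The 19S cap recognises ubiquitin chains, removes them and unfolds the substrate with a ring of ATPases (Psmc genes) before passing it into the core. In animal cells many of these genes can be raised together by the transcription factor Nfe2l1 through antioxidant response elements, and cytokines can replace the catalytic β subunits by the immunoproteasome subunits Psmb8, Psmb9 and Psmb10.

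Promoter stretches are shown here because the counts further on are given separately for core and cap, and because the antioxidant response element is the textbook site of these genes. RefSeq promoter windows (build GRCm38.p6, 250 bases before to 50 after a start) were matched for 28 of the 34 members, 11 of the core and 17 of the cap. Psmb1, Psmb2, Psmb7, Psmc3, Psmd3 and Psmd7 had no entry. In the stretches that follow, read 5′ to 3′ along the gene, capitals mark the letters that matched the searched motif on either strand. The first 2 hold the antioxidant response element core TGACNNNGC in genes of catalytic subunits, and the next 4 hold the ETS core CCGGAAG, or its reverse complement, in genes of the cap:
Psmb5, chr14:54618022-54618054, minus strand: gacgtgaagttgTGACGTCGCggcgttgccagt
Psmb6, chr11:70525336-70525368, plus strand: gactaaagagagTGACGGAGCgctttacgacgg
Psmc1, chr12:100110162-100110192, plus strand: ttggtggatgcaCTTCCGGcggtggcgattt
Psmd2, chr16:20651614-20651644, plus strand: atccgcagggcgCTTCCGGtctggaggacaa
Psmd12, chr11:107479499-107479529, plus strand: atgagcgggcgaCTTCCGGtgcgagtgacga
Psmd6, chr14:14120972-14121002, minus strand: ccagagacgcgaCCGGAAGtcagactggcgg

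The ETS core was in 9 of 17 cap promoters (52.9%) and in 1 of 11 core promoters (9.09%, Psma6), while 20.6% of the tested genes with a window and 9.93% of all genes in the promoter table held it. The cap genes with it were Psmc1, Psmc2, Psmc6, Psmd2, Psmd4, Psmd6, Psmd11, Psmd12 and Psmd13. The antioxidant response element core was in Psmb5 and Psmb6 of the 20S core (18.2%) and in Psmc6, Psmd9 and Psmd12 of the cap (17.6%), beside 17.0% of tested genes and 14% of all genes in the promoter table.

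Of the 7 other motifs searched, GGGCGG was in 45.5% of core and 76.5% of cap promoters (70.4% of tested genes, 38.2% of all genes), and CCAAT in 54.5% and 29.4% (43.1% and 41.1%). The nuclear respiratory factor 1 consensus was in 27.3% and 17.6% (11.8% and 5.19%). The NF-kB consensus was in 18.2% and 17.6% (12.5% and 9.55%). AAGATGGC was in 18.2% and 5.88% (5.42% and 3.19%), and CACGTG in 9.09% and 5.88% (12% and 8.09%). TGACGTCA was in 0 core and 0 cap promoters (3.6% and 2.03%). Motifs could overlap, as TGACNNNGC and the reverse complement of GGGCGG do in Psmd9. These shares describe letters in short windows and say nothing of binding, and their relation to differences between the groups was not tested.

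In vehicle cells all 34 members were expressed, and each was at 9.6 FPKM or more in every one of the 16 libraries. FPKM counts fragments per kilobase of transcript, scaled by library size, and so allows levels of different genes to be compared. Core genes had a median of 112 FPKM, from 56.1 for the α subunit Psma2 to 277 for Psmb6. Cap genes had a median of 69.7 FPKM, from 10.4 for the assembly chaperone Psmd9 to 114 for Psmd8. Of the 14 highest members, 10 belonged to the core, with Psmb6, Psma7, Psmb4, Psmb1 and Psmb3 at the head. The 3 cap assembly chaperones were the 3 lowest of all members, Psmd5 at 21.3, Psmd10 at 16 and Psmd9 at 10.4 FPKM. The coefficient of variation over the 4 vehicle libraries was between 1.42% (Psmb7) and 11.2% (Psmc4).

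**Figure D1:**
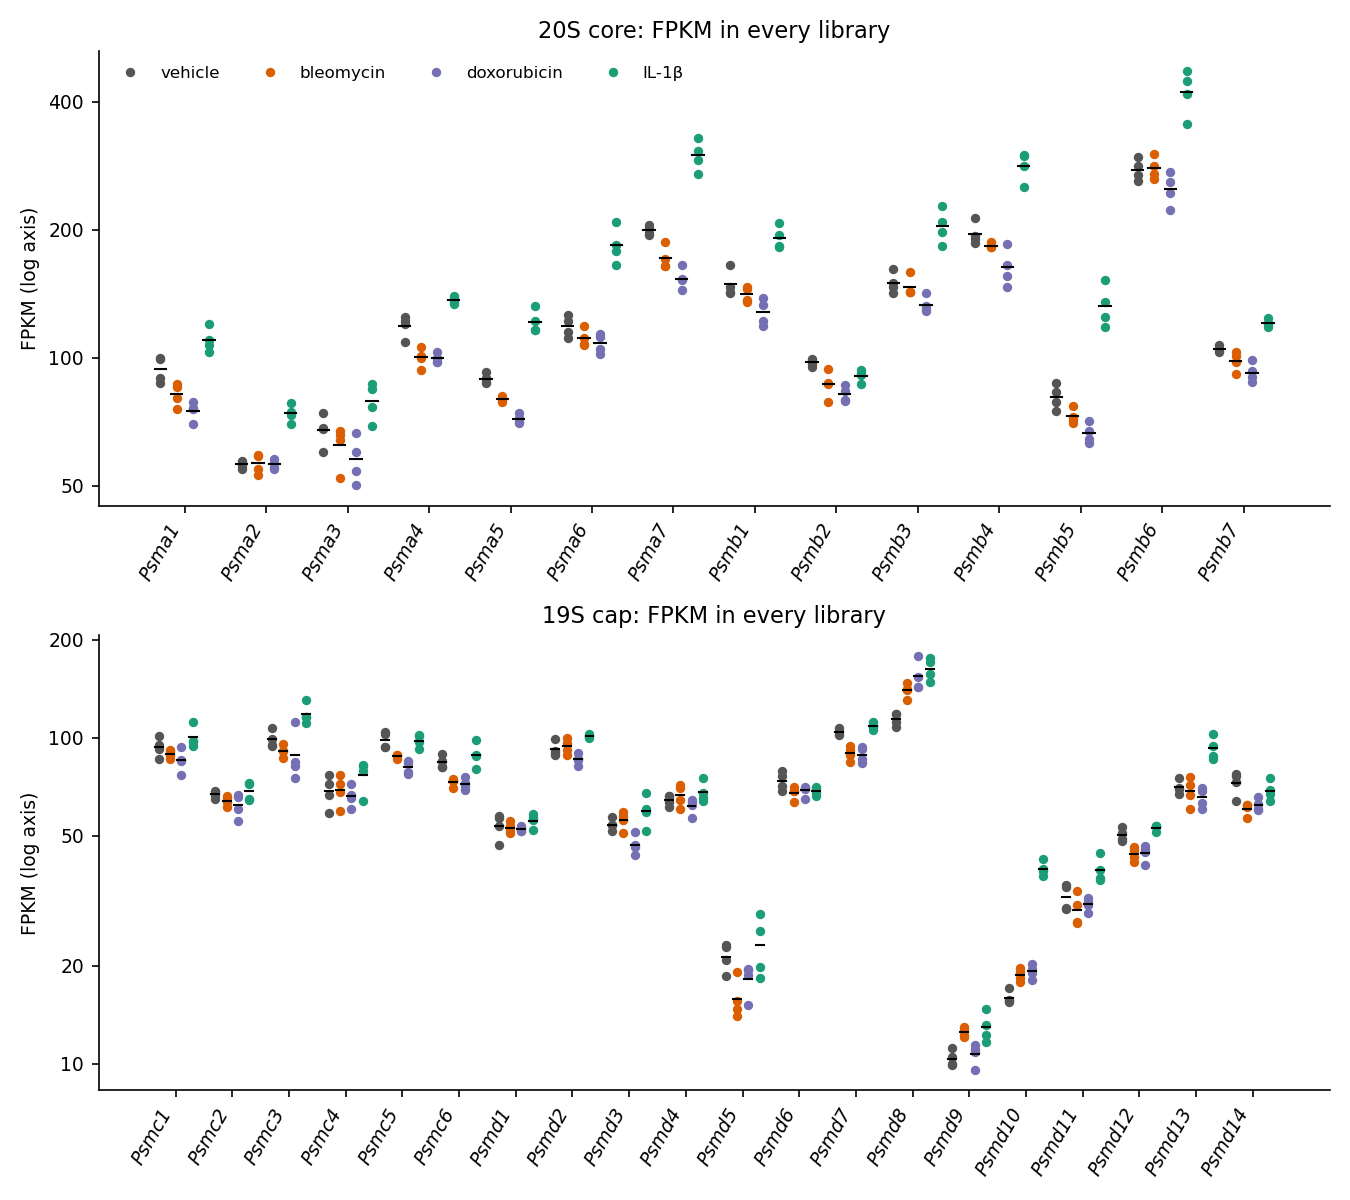
FPKM (log axis) of the 14 core genes (top) and 20 cap genes (bottom) in each of the 16 libraries, with points coloured by group and a short black line at each group mean. IL-1β points of Psma5, Psma6, Psma7, Psmb4, Psmb5 and Psmb6 stand above all other points of their gene, Psmd10 shows the widest gap in the cap, and Psmd9 is the lowest gene throughout.

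IL-1β was the stimulus under which core transcripts were higher. In the test across all 12976 genes that reached 1 FPKM in 4 or more libraries (limma on log2(FPKM + 1), Benjamini-Hochberg adjusted p under 0.05), 12 of 14 core genes rose over vehicle and 0 fell. Of the 20 cap genes 7 rose and 0 fell. Without the assembly chaperones Psmd5, Psmd9 and Psmd10, 5 of 17 cap genes rose and 0 fell. Over all genes tested, 24.5% rose and 18.4% fell. The median log2 difference was 0.42 for the core and 0.09 for the cap, beside 0.03 for all genes tested. Both rings of the core contributed, with 6 of 7 α genes and 6 of 7 β genes higher. The 2 that did not pass were Psma3 and Psmb2, and the libraries of 12 core genes lay wholly above vehicle while those of Psmb2 lay wholly below (22.0% and 16.5% of all genes did so).

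The chymotrypsin-like subunit Psmb5 had the largest core difference. The gene lies on the minus strand of chromosome 14 from 54614119 to 54618022 (GRCm38). Its 4 vehicle libraries read 75.0, 83.1, 87.1 and 78.5 FPKM and its IL-1β libraries 125, 152, 135 and 118 FPKM, so the groups were well apart. The mean rose 1.64-fold, a log2 difference of 0.70 ± 0.07 (SE) with an adjusted p of 6.79e-07 in limma. A processed pseudogene, Gm3375, matches the Psmb5 transcript at 98.9% identity over 796 bases and was itself listed at 45.0 to 48.4 FPKM in vehicle and 65.9 to 82.6 FPKM under IL-1β. How reads were divided between them is not given in the sources used here, and with its FPKM added to Psmb5 the difference was 0.67.

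The other large core increases were in Psma6, Psmb6 and Psma7. Psma6, an α subunit, read 122, 115, 111 and 126 FPKM in vehicle and 184, 208, 178 and 165 under IL-1β, a log2 difference of 0.63 (limma adjusted p 1.25e-06). Psmb6, the caspase-like subunit, read 296, 260, 269 and 283 FPKM in vehicle and 471, 354, 448 and 416 under IL-1β, a log2 difference of 0.60 (adjusted p 2.35e-05). The α subunit Psma7 read 202, 205, 196 and 194 FPKM in vehicle and 307, 329, 291 and 271 under IL-1β, a log2 difference of 0.58 (adjusted p 1.31e-06). In none of these 3 genes did a vehicle library reach an IL-1β library. Psmb7, the trypsin-like subunit, moved less, from 105 ± 1.49 to 121 ± 2.34 FPKM (SD, n = 4), a log2 difference of 0.20 with a limma adjusted p of 0.00263. Psmb7 lost its direction when a trend with transcript length was removed (-0.01) and when every library was rescaled to a common sum (-0.17). The gene overlaps Nek6 on the opposite strand. The remaining core genes past the test were Psma1, Psma2, Psma4, Psma5, Psmb1, Psmb3 and Psmb4, with log2 differences from 0.20 (Psma4) to 0.53 (Psmb4).

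In the cap the 2 largest increases were in genes other than the ATPases. Psmd10, also called gankyrin, is a chaperone that guides assembly of the base of the cap and lies on chromosome X from 140948429 to 140956728. Its vehicle libraries read 17.1, 15.5, 15.6 and 15.7 FPKM and its IL-1β libraries 37.7, 42.5, 39.5 and 39.0 FPKM. This 2.48-fold rise (log2 difference 1.26 ± 0.05 SE, limma adjusted p 2.58e-11) was the largest change of any member in any comparison with vehicle. The lid subunit Psmd8 rose from 112, 108, 118 and 118 FPKM to 148, 176, 171 and 157 FPKM (log2 difference 0.51, adjusted p 2.98e-05). Psmd13, also of the lid, rose from 70.4, 69.7, 67.1 and 75.2 FPKM to 103, 86.4, 94.4 and 88.2 FPKM (log2 difference 0.39, adjusted p 0.000444). Psmd13 overlaps Sirt3 on the opposite strand. The assembly chaperone Psmd9 went from 9.98, 9.90, 11.2 and 10.5 FPKM to 14.7, 11.7, 12.3 and 13.2 FPKM (log2 difference 0.29, adjusted p 0.0032), a rise that turned to -0.05 on rescaling to a common sum. None of these 4 genes had overlapping groups.

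The other cap genes past the test were Psmc3 (log2 difference 0.26), Psmd11 (0.27) and Psmd2 (0.13), with limma adjusted p of 0.0347, 0.0153 and 0.0417. The cap count fell from 7 to 4 without vehicle replicate 2, without vehicle replicate 4 or without IL-1β replicate 1. Of the 6 ATPases only Psmc3 passed, while Psmc1, Psmc2, Psmc4, Psmc5 and Psmc6 had log2 differences between -0.01 and 0.16. Psmc3 overlaps Slc39a13 on the opposite strand, which was at up to 71.8 FPKM. The ubiquitin receptor Psmd4 read 66.4, 63.7, 66.1 and 61.4 FPKM in vehicle and 63.9, 65.3, 75.5 and 67.5 under IL-1β, with overlapping groups (log2 difference 0.08, adjusted p 0.378). The deubiquitinase Psmd14, which clips ubiquitin chains off the substrate, had a log2 difference of -0.08 (adjusted p 0.376).

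The IL-1β libraries differed from the rest in scale and in length. Their FPKM summed to 521294 to 559190, against 405159 to 423830 in the other 12 libraries, and the acute-phase gene Saa3 alone held 62509 to 80249 FPKM of it. With every library rescaled to 1 common sum, the median of all genes tested went from 0.03 to -0.28, 5 core genes rose and 3 fell, and in the cap 1 rose and 12 fell. The share of called genes that were higher was 57.1% as deposited, 44.0% after quantile normalization and 17.2% after that rescaling. Relative to the median of all genes, 13 of 14 core genes were above under each of 4 scalings (as deposited, median of ratios, quantile and common sum), by a median of 0.38, 0.38, 0.34 and 0.33. In the cap 16, 16, 14 and 11 of 20 were above, by a median of 0.06, 0.06, 0.05 and 0.01. Median-of-ratios and common-sum scaling multiply each library by 1 factor, which subtracting that median largely removes. Their agreement with the deposited values is therefore no separate support. With the length trend removed, 11 of 14 core genes and 12 of 20 cap genes were above. The 2611 tested genes whose longest coding transcript was under 1500 bases had a median log2 difference of 0.19, the 10353 longer ones 0.00. Core transcripts had a median length of 1162.5 bases and cap transcripts 1887 bases. With the length trend removed, 9 core genes rose and 1 fell, the core median stood 0.27 above that of all genes and Psmb5 had a log2 difference of 0.45. In the cap 5 then rose and 3 fell, with a median 0.04 above that of all genes.

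Core transcripts were lower under doxorubicin. In the same fit 10 of 14 core genes fell against vehicle and 0 rose, with a median log2 difference of -0.24. Of 20 cap genes 6 fell and 2 rose, with a median of -0.11. Without Psmd5, Psmd9 and Psmd10, 6 of 17 cap genes fell and 1 rose. Over all genes tested 22.8% fell and 25.4% rose, with a median of 0.02. The libraries of 9 core genes lay wholly below vehicle, which 20.5% of all genes did. In the cap 5 lay wholly below and 2 wholly above (23.6% of all genes). Of the β ring 6 of 7 fell, and of the α ring 4 of 7.

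Psma7 fell most. It went from 202, 205, 196 and 194 FPKM in vehicle to 165, 153, 152 and 144 under doxorubicin, a log2 difference of -0.38 ± 0.06 (SE, limma adjusted p 0.000122). Psma1, another α subunit, went from 99.5, 89.4, 87.3 and 100 FPKM to 75.7, 70.0, 76.3 and 78.6 (log2 difference -0.32, adjusted p 0.000672). Psma5 went from 89.5, 87.7, 87.0 and 92.7 FPKM to 74.2, 70.8, 72.0 and 70.3 (-0.31, adjusted p 4.47e-05). In all 3 every doxorubicin library was below every vehicle library. Among the catalytic subunits, Psmb5 fell to 71.1, 67.4, 63.2 and 64.4 FPKM (-0.28, adjusted p 0.00416) and Psmb7 to 93.0, 87.5, 98.6 and 90.0 FPKM (-0.19, adjusted p 0.00392). Psmb6 read 274, 222, 244 and 259 FPKM, overlapping vehicle (-0.15, adjusted p 0.155). The other core genes not past the test were Psma2 (0.00), Psma3 (-0.23) and Psma6 (-0.13).

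In the cap, Psmd8 and Psmd10 went the other way. Psmd8 rose to 154, 143, 143 and 178 FPKM (log2 difference 0.43, limma adjusted p 0.000152), so its lowest doxorubicin library was above its highest vehicle library of 118. Psmd10 rose to 20.3, 18.1, 19 and 19.5 FPKM (0.25, adjusted p 0.00104). The ATPase Psmc5 fell from 103, 104, 93.9 and 94.0 FPKM to 78.5, 83.6, 77.7 and 85.0 (-0.28, adjusted p 0.000269), and the ATPase Psmc6 fell as well (-0.21). The lid subunit Psmd7, the partner of the deubiquitinase, fell from 105, 103, 102 and 107 FPKM to 93.7, 86.1, 83.6 and 92.1 (-0.23, adjusted p 0.000913). Psmd14 itself fell to 66.0, 62.6, 60.1 and 60.4 FPKM (-0.22, adjusted p 0.0114), with 1 vehicle library at 63.9 inside that range. Psmd3 (-0.20) and Psmd12 (-0.18) fell too, and Psmd4 had a log2 difference of -0.06 (adjusted p 0.477). For Psmc3, doxorubicin replicate 4 read 112 FPKM where the other 3 libraries read 75.5 to 84.1.

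Under bleomycin fewer members passed the test. In the fit 5 of 14 core genes fell and 0 rose, with a median log2 difference of -0.11. With the length trend removed 8 core genes fell. In the cap 6 of 20 fell and 3 rose, with a median of -0.07. Without Psmd5, Psmd9 and Psmd10, 5 of 17 cap genes fell and 1 rose. Over all genes tested 19% fell and 27.9% rose, with a median of 0.06. The libraries of 6 core and 5 cap genes lay wholly below vehicle, which 17.5% of all genes did, and those of 3 cap genes wholly above (26.3%). Of the core genes that fell, 4 were α subunits (Psma1, Psma4, Psma5 and Psma7) and 1 a β subunit (Psmb2).

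Psma4 fell from 125, 122, 109 and 120 FPKM to 106, 100, 93.6 and 101 (log2 difference -0.25, limma adjusted p 0.000841). Psma7 fell to 164, 187, 171 and 164 FPKM (-0.22, adjusted p 0.00976), below all vehicle libraries. Psma1 read 85.3, 86.6, 75.8 and 80.4 FPKM (-0.19, adjusted p 0.0212), a call that was lost without vehicle replicate 1, vehicle replicate 4 or bleomycin replicate 3. The β subunit Psmb2 read 98.8, 96.5, 95.1 and 99.5 FPKM in vehicle and 86.6, 94.1, 87.1 and 78.8 under bleomycin (-0.17, adjusted p 0.014), and lost its call without bleomycin replicate 4. None of the 3 catalytic subunits passed. Psmb5 read 71.4, 72.4, 77.0 and 70.3 FPKM (-0.15, adjusted p 0.098). Psmb6 had a log2 difference of 0.01, and Psmb7 one of -0.09.

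Among cap genes the largest bleomycin decrease was in Psmd5, a chaperone that holds back docking of the cap base on the core. It read 23.1, 20.8, 18.6 and 22.8 FPKM in vehicle and 14.7, 19.2, 14 and 15.6 under bleomycin (log2 difference -0.41 ± 0.13 SE, limma adjusted p 0.019), the groups overlapping by 1 library. Its call was lost without vehicle replicate 1 or bleomycin replicate 3. Psmd14 fell from 77.7, 76.3, 63.9 and 73.3 FPKM to 62.4, 62.3, 56.6 and 61.3 (-0.26, adjusted p 0.00436). Psmd8 rose to 141, 131, 140 and 147 FPKM (0.29, adjusted p 0.00394). Psmd9 rose to 12.3, 12.1, 13.0 and 12.8 FPKM (0.25, adjusted p 0.00873), and Psmd10 to 19.1, 19.7, 17.9 and 18.4 FPKM (0.22, adjusted p 0.00327). No bleomycin library of Psmd8, Psmd9 or Psmd10 reached down to a vehicle library. Psmc5 (-0.17), Psmc6 (-0.20), Psmd7 (-0.22) and Psmd12 (-0.19) completed the cap genes that fell, and Psmd4 had a log2 difference of 0.05 (adjusted p 0.583). After another scaling the share of called genes that were higher under bleomycin was 48.3% (quantile) in place of 59.5%.

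**Figure D2:**
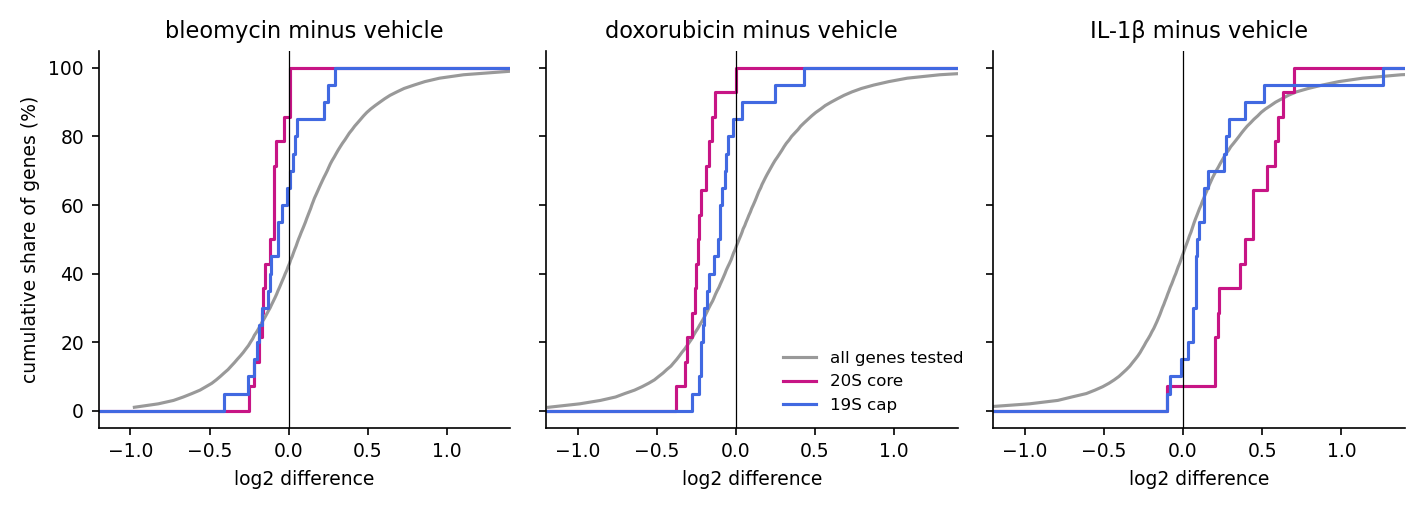
Cumulative share of genes (%) against the log2 difference from vehicle, with 1 panel per treatment, for all 12976 genes tested (grey), the 14 core genes (pink) and the 20 cap genes (blue). Under doxorubicin the core curve lies left of the cap curve (medians -0.24 and -0.11), and under IL-1β it lies right of it (0.42 and 0.09).

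Side by side, the 3 treatments divided the members as follows, with the reminder that all 3 comparisons share the same vehicle libraries. Psma1, Psma4, Psma5 and Psma7 were lower under both drugs and higher under IL-1β. Psmb1, Psmb3, Psmb4, Psmb5 and Psmb7 were lower under doxorubicin and higher under IL-1β. Psma2, Psma6 and Psmb6 passed the test only with IL-1β, Psmb2 only with the 2 drugs, and Psma3 with none. A pseudogene, Gm13835, is identical to the Psma3 transcript over 665 bases and was at up to 24.8 FPKM, so the Psma3 values are uncertain. In the cap, Psmc5, Psmc6, Psmd7, Psmd12 and Psmd14 were lower under both drugs, Psmc3, Psmd2, Psmd11 and Psmd13 were higher only with IL-1β, and Psmd8 and Psmd10 were higher with all 3. Psmd9 was higher with bleomycin and IL-1β, Psmd5 was past the test with bleomycin alone (lower) and Psmd3 with doxorubicin alone (lower). No test was passed by Psmc1, Psmc2, Psmc4, Psmd1, Psmd4 or Psmd6 in any comparison with vehicle.

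The drugs were then compared with each other and with IL-1β without use of the vehicle mean. Between bleomycin and doxorubicin, 1 core gene and 1 cap gene were higher under bleomycin and 0 lower, where 5.85% of all genes were higher and 4.18% lower. All 14 core genes had a log2 difference above 0, between 0.01 and 0.17, with a median of 0.13 beside 0.04 for all genes and 0.03 for the cap. Of all 12976 genes tested, 7956 were above 0 as well. Relative to the median of all genes, 11 of 14 core and 9 of 20 cap genes were above. The libraries of 2 core and 2 cap genes under bleomycin lay wholly above those under doxorubicin and 0 wholly below (11.6% and 6.31% of all genes). Psma5 read 80.5, 81.3, 78.8 and 79.3 FPKM under bleomycin and 70.3 to 74.2 under doxorubicin (log2 difference 0.15, limma adjusted p 0.0483). Psmd3, a subunit of the lid, read 56.0, 57.4, 59.1 and 51 FPKM under bleomycin and 51.4, 46.3, 46.9 and 43.7 under doxorubicin (0.24, adjusted p 0.0474), with overlapping groups. Both calls were at the threshold and were lost under most other settings, among them leaving out any 1 vehicle library. Median-of-ratios scaling turned the share of called genes that were higher from 58.3% to 38.3%, and quantile normalization to 46.6%.

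Against IL-1β, the mean of both drugs was lower in 13 of 14 core genes and 13 of 20 cap genes and higher in 0 of either, where 29.5% of all genes were lower and 28.5% higher. The median log2 difference was -0.52 for the core, -0.21 for the cap and -0.00 for all genes. The libraries of 13 core and 9 cap genes under the 2 drugs lay wholly below those under IL-1β, as did 18.7% of all genes, and 0 lay wholly above (18.5%). Psmb5 (log2 difference -0.91, limma adjusted p 2.96e-09), Psma7 (-0.88, adjusted p 1.02e-09) and Psma6 (-0.74, adjusted p 2.04e-08) led the core. Psmd10 (-1.02, adjusted p 2.61e-11), Psmd13 (-0.46, adjusted p 1.24e-05) and Psmd5 (-0.41, adjusted p 0.00648) led the cap. Psmd5 read 19.6, 18.7, 15.2 and 19.4 FPKM under doxorubicin and 19.8, 25.6, 18.3 and 28.8 under IL-1β, so its groups overlapped. Psmd8, which was higher than vehicle in all 3 groups, had a log2 difference of -0.15 (adjusted p 0.0517). With every library rescaled to 1 common sum the median of all genes was 0.33, 8 core genes were lower and 1 higher, 1 cap gene was lower and 13 higher, and the share of called genes that were higher was 83.5% in place of 49.2%. Relative to that median all 14 core and 19 of 20 cap genes were below, which rescaling by 1 factor per library could hardly alter. After quantile normalization, 13 core and 16 cap genes were below the median of all genes.

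The balance of core and cap within a library is not altered by multiplying all values of that library by 1 factor. Quantile normalization is not such a factor, and under it the median log2 differences of core and cap were 0.30 and 0.01 for IL-1β and -0.23 and -0.07 for doxorubicin. The balance was taken as the ratio of the geometric mean FPKM of the 14 core genes to that of the 20 cap genes. The 20 include the assembly chaperones Psmd5, Psmd9 and Psmd10, which are not part of the finished cap. These were the lowest members in vehicle, at 10.4 to 21.3 FPKM, so they lower the cap mean and raise every ratio below. The cap means and ratios are therefore not those of the finished cap. Without the chaperones only the IL-1β minus vehicle balance is given, under the dependence on processing. A shift with transcript length can alter it, since core transcripts had a median of 1162.5 bases and cap transcripts 1887. Under IL-1β the median log2 difference was 0.19 for genes under 1500 bases and 0.00 for longer ones. No length-adjusted ratio was computed. The vehicle libraries had ratios of 1.97, 2.06, 2.06 and 2.04, and the IL-1β libraries 2.37, 2.35, 2.39 and 2.20, all above vehicle. Bleomycin gave 1.98, 1.89, 1.94 and 1.99, of which 2 lie inside the vehicle range. Doxorubicin gave 1.89, 1.78, 1.99 and 1.74, with 3 libraries below all vehicle libraries and replicate 3 inside their range. The geometric mean of the core was 117 ± 2.00 FPKM in vehicle, 108 ± 2.06 under bleomycin, 100 ± 4.12 under doxorubicin and 153 ± 6.90 under IL-1β (SD, n = 4). That of the cap was 57.5 ± 1.68, 55.4 ± 1.83, 54.1 ± 2.61 and 65.8 ± 0.789 FPKM in the same order. These are descriptions with no test, since the members were chosen with results known.

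**Figure D3:**
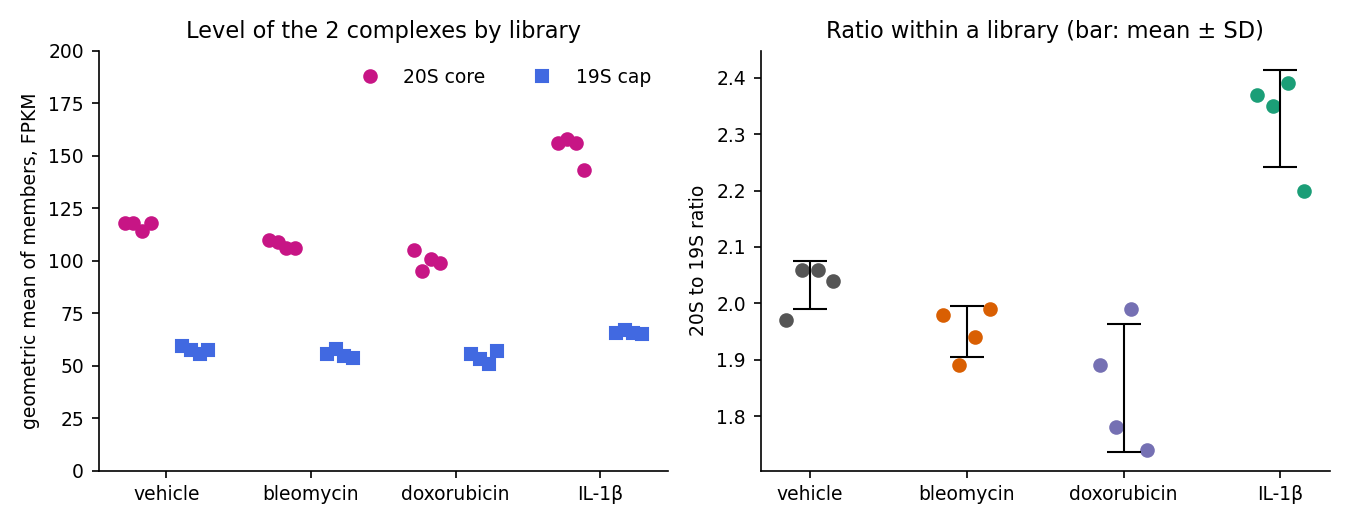
Left, geometric mean FPKM of the core genes (pink circles) and cap genes (blue squares, with Psmd5, Psmd9 and Psmd10 included) in each library. Right, ratio of the 2 in each library with group mean and SD on an axis that does not start at 0. The 4 IL-1β ratios, 2.20 to 2.39, are above every other library, and doxorubicin spreads from 1.74 to 1.99.

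Most genes that assemble the core were lower under doxorubicin as well, with a median log2 difference of -0.62. Psmg1 to Psmg4 encode chaperones that build the α ring, and Pomp encodes the factor that matures the β ring. Under doxorubicin 4 of these 5 fell and 1 rose, under bleomycin 3 fell and 0 rose, and under IL-1β 4 rose and 0 fell. For these and the following lists, 19% of all genes tested fell and 27.9% rose under bleomycin, 22.8% and 25.4% under doxorubicin, and 18.4% and 24.5% under IL-1β. Psmg1 read 32.3, 34.1, 36.3 and 33.4 FPKM in vehicle, 22.0, 23.1, 25.5 and 21.8 under bleomycin, 19.8, 19.2, 18.5 and 18.4 under doxorubicin and 43.2, 34.7, 42.7 and 39.0 under IL-1β. Its log2 differences were -0.54 and -0.81 for the drugs and 0.22 for IL-1β, all past the test in limma, and both drug groups were clear of vehicle while the IL-1β group overlapped it.

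Psmg4 read 35.4, 37.8, 33.3 and 42.3 FPKM in vehicle and 20.8, 18.5, 20.9 and 19.2 under doxorubicin (log2 difference -0.87, limma adjusted p 7.17e-06). Under IL-1β it read 58.3, 47.8, 61.3 and 52.3 FPKM (0.55, adjusted p 0.000715). Psmg3 fell by 0.62 and Psmg2 by 0.45 on the log2 scale under doxorubicin. Psmg1 to Psmg4 were all higher under bleomycin than under doxorubicin, by 0.27 to 0.57. Pomp was the exception among these genes: it rose from 40.4 ± 1.29 FPKM in vehicle to 46.8 ± 2.06 under doxorubicin (SD, n = 4, limma adjusted p 0.00361) and 50.9 ± 2.55 under IL-1β (adjusted p 8.81e-05), and was at 42.3 ± 2.03 under bleomycin. The IL-1β rise of Pomp turned to -0.04 on rescaling to a common sum.

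**Figure D4:**
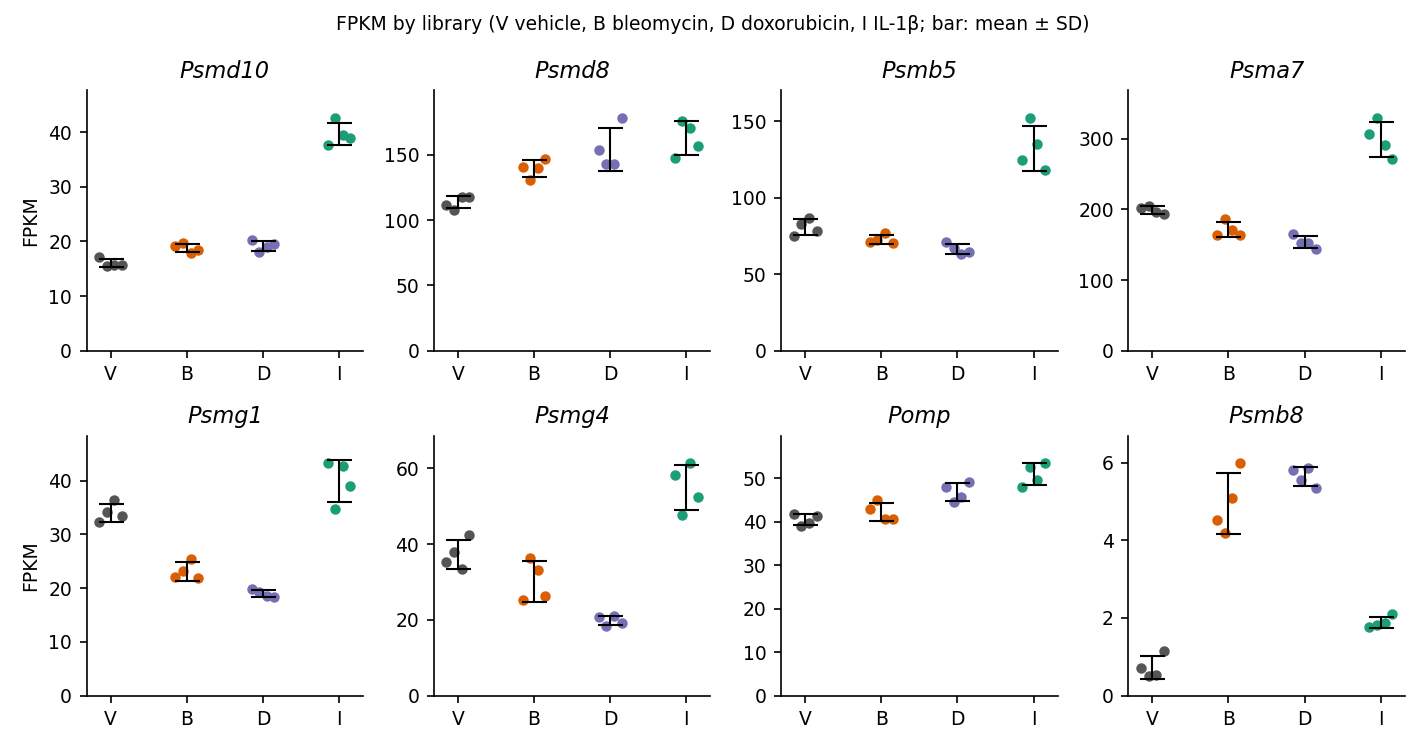
FPKM in each library of 4 members (top) and of 3 core assembly factors and the immunoproteasome gene Psmb8 (bottom), with group means and SD. Psmg1 and Psmg4 are lowest under doxorubicin (18.4 to 19.8 and 18.5 to 20.9 FPKM), Pomp is highest under IL-1β, and Psmb8 stays at or below 5.98 FPKM in all libraries.

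The immunoproteasome subunits Psmb8 and Psmb9 rose with both drugs and with IL-1β. Of the 4 tested of 5 listed, 2 rose under bleomycin, 3 under doxorubicin and 3 under IL-1β, and 0 fell, where 27.9%, 25.4% and 24.5% of all genes rose. Psmb8 read 0.719, 0.499, 0.534 and 1.16 FPKM in vehicle, 4.18 to 5.98 under bleomycin, 5.35 to 5.86 under doxorubicin and 1.78 to 2.10 under IL-1β. These levels remained far below Psmb5: the Psmb8 level was 0.601 to 1.48% of that of Psmb5 in vehicle, 5.77 to 8.50% under bleomycin, 8.15 to 9.28% under doxorubicin and 1.19 to 1.77% under IL-1β. The Psmb5 level leaves out its pseudogene Gm3375, at a mean of 46.9 FPKM in vehicle beside 80.9 for Psmb5. Adding it would lower these percentages. Psmb9 was at 0.0838 to 0.251% of Psmb6 in vehicle and at most 1.09% in any library. Psmb10 was at 6.54 to 8.49% of Psmb7 in vehicle, 8.33 to 9.02% under bleomycin, 9.32 to 12.6% under doxorubicin and 8.89 to 13.7% under IL-1β. Psmb10 itself rose under doxorubicin (log2 difference 0.31) and IL-1β (0.72).

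Among the activators and the inhibitor of the core (5 genes), 1 rose and 1 fell with each drug, and 2 rose and 1 fell with IL-1β. The drug counts are near the shares of all genes that rose (27.9% and 25.4%) and fell (19% and 22.8%). Psme1, which opens the core gate, was at 22.0 FPKM in vehicle and 39.1 under IL-1β, and Psme3 at 48.6 and 39.6. Among 9 tested of 11 other 19S subunits and associated factors, 1 rose and 2 fell under bleomycin, 1 rose and 3 fell under doxorubicin, and 3 rose under IL-1β. The cap-bound deubiquitinase Uchl5 fell from 14.5 to 9.63 and 9.52 FPKM under bleomycin and doxorubicin. Zfand2a, an arsenite-inducible factor that associates with the cap, rose from 8.77 to 15.3 and 14.7 FPKM under the drugs and to 11.9 under IL-1β, and the small cap subunit Sem1 rose from 69.9 to 102 FPKM under IL-1β.

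Of 12 shuttle factors and p97 cofactors, 2 rose and 5 fell under bleomycin, 2 rose and 7 fell under doxorubicin, and 1 rose and 4 fell under IL-1β. Over all genes 19%, 22.8% and 18.4% fell in that order. The shuttle Rad23b, which carries ubiquitinated proteins to the cap, fell from 68.5 FPKM to 55.9, 50.6 and 51.6 in that order. Of 4 tested ubiquitin genes and E1 enzymes, 1 fell and 0 rose with each drug, and 1 rose and 0 fell under IL-1β. Under IL-1β 24.5% of all genes rose. Rps27a was that gene each time. Rps27a, which encodes a ribosomal protein fused to ubiquitin, fell under bleomycin and doxorubicin (log2 differences -0.50 and -0.57) and rose under IL-1β (0.39, limma adjusted p 0.00112). The ubiquitin gene Ubb passed no test, at a mean of 248 FPKM in vehicle and 298, 287 and 298 under bleomycin, doxorubicin and IL-1β. The IL-1β rise of Rps27a turned to -0.10 after quantile normalization.

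Of 12 tested regulators of proteasome genes, 1 rose and 1 fell under bleomycin, 2 rose and 2 fell under doxorubicin, and 5 rose and 1 fell under IL-1β. The drug counts are below the shares of all genes that rose (27.9% and 25.4%) and fell (19% and 22.8%), and 24.5% of all genes rose under IL-1β. Nfe2l1 read 51.7, 42.4, 50.3 and 37.2 FPKM in vehicle, 59.9, 49.4, 58.2 and 59.9 under bleomycin, 27.5, 64.7, 54.9 and 27.9 under doxorubicin and 45.3, 40.0, 42.2 and 48.9 under IL-1β. It passed no test, and its doxorubicin libraries split into 2 low and 2 high values. The related factor Nfe2l2 rose from 40.5 to 60.1 FPKM under IL-1β (log2 difference 0.56, limma adjusted p 3.5e-07), and was at 39.7 and 40.0 under the drugs. Foxo4 fell in all 3 comparisons, from 21.5 to 12.2, 12.6 and 11.2 FPKM.

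Folding machinery was examined beside the proteasome. All 8 genes of the CCT chaperonin, which folds actin and tubulin, fell under bleomycin and under doxorubicin, and 2 of 8 fell under IL-1β. Cct3, for example, went from 136 ± 10.4 FPKM in vehicle to 94.2 ± 2.86 and 89.5 ± 5.73 under the drugs (SD, n = 4). Of 14 cytosolic chaperones, 7 rose and 5 fell under bleomycin, 5 rose and 5 fell under doxorubicin, and 6 rose and 2 fell under IL-1β, where 27.9%, 25.4% and 24.5% of all genes rose and 19%, 22.8% and 18.4% fell. The small heat shock protein Cryab rose from 32.3 to 60.4 and 55.8 FPKM under the drugs. Under IL-1β it fell to 23.9 FPKM (log2 difference -0.42), with libraries that overlapped vehicle. The autophagy receptor Sqstm1 rose from 128 to 190, 176 and 233 FPKM.

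The labelled cell type was checked on its markers. All 13 chondrocyte markers, Col2a1 and Acan among them, were expressed, with a summed level of 13521 to 18171 FPKM in vehicle, 10130 to 13583 under bleomycin, 10420 to 13726 under doxorubicin and 6076 to 6503 under IL-1β, where all 13 fell. Col2a1, at a mean of 8971 FPKM in vehicle, was the largest part of the sum. Under bleomycin 10 fell and 1 rose (Comp, mean 934 to 1450 FPKM), and under doxorubicin 8 fell and 0 rose. Of all genes, 19%, 22.8% and 18.4% fell under bleomycin, doxorubicin and IL-1β. Macrophage markers (4 of 10 tested) summed to 9.0 to 11.1, 16.2 to 18, 19.2 to 24.0 and 29.1 to 34.8 FPKM in vehicle, bleomycin, doxorubicin and IL-1β. Of these, Adgre1, Itgam, Ptprc, Cx3cr1 and Fcgr1 were under 0.1 FPKM in every library. Of the 4 tested, 3 rose with each treatment, beside 27.9%, 25.4% and 24.5% of all genes, and 1 fell under IL-1β. Mean Cd68 went from 1.41 FPKM in vehicle to 4.52, 3.94 and 7.94, and Cd14 from 3.85 to 5.48, 5.57 and 15.8. Lyz2 went from 3.33 to 6.10, 10.9 and 6.66 FPKM, and Mrc1 from 1.06 to 0.936, 1.04 and 0.543. Adipocyte markers (6 of 7) summed to 35.7 to 41.3, 73.0 to 84.0, 154 to 201 and 367 to 405 FPKM, of which Fabp4 was the largest part. All 6 tested rose under both drugs, among them Adipoq (mean 0.104 FPKM in vehicle, 4.06 under bleomycin, 13.9 under doxorubicin), Cfd (0.0172, 2.25 and 8.34) and Plin1 (0.0878, 1.19 and 2.45). Under IL-1β 3 rose, and Adipoq, Cfd and Plin1 were at 0.0429, 0 and 0.0457 FPKM.

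Synovial fibroblast markers (5 of 7 tested) summed to 77.9 to 115, 136 to 184, 187 to 255 and 127 to 157 FPKM, with Pi16 under 0.1 everywhere. With bleomycin 3 rose and 0 fell, with doxorubicin 4 rose and 0 fell, and with IL-1β 2 rose and 2 fell. Under IL-1β 24.5% of all genes rose and 18.4% fell. There mean Pdpn went from 23.8 FPKM in vehicle to 74.6 and Prg4 from 21.1 to 38.1. Pdgfra went from 31.7 to 15.1 FPKM and Thy1 from 14.5 to 7.51. Osteoblast markers (5 of 6) summed to 19.3 to 25.7, 22.3 to 30.8, 22.1 to 24.5 and 29.1 to 35.1 FPKM, which hides opposite changes. With each drug 2 rose and 2 fell, and with IL-1β 2 rose and 1 fell. Of all genes, 27.9%, 25.4% and 24.5% rose in that order. Bglap went from 0.30 FPKM in vehicle to 2.79, 2.08 and 5.61, and Bglap2 from 0.369 to 5.23, 5.22 and 11.4. Sp7 went from 2.85 to 1.53, 1.02 and 3.22 FPKM, and Runx2 from 5.84 to 4.30, 3.58 and 5.79. Tendon markers (4 of 4) summed to 51.8 to 67.0, 24.6 to 33.4, 37.4 to 47.3 and 23.3 to 31.5 FPKM, below every vehicle library in all 3 treated groups. The sum again hides differences between genes. With each drug 2 fell and 0 rose, and with IL-1β 3 fell and 0 rose. Tnmd went from 15.9 to 2.37, 4.95 and 2.76 FPKM, and Thbs4 from 28.9 to 9.43, 21.8 and 10.1. Scx did not follow them, at 12.9 FPKM in vehicle and 13.9, 14.1 and 14 in the treated groups. Mkx was at 1.76 FPKM in vehicle and 1.79 and 1.62 under the drugs, and was lower under IL-1β. Muscle markers (3 of 5) summed to 4.57 to 6.74, 5.17 to 6.97, 5.22 to 8.15 and 2.72 to 4.20 FPKM. Endothelial and erythroid markers (0 of 7 and 0 of 5 tested) stayed at or below 0.956 and 0.472 FPKM. Several of these sums differed between the groups in which proteasome genes differed, and their part in the results was not tested. In bulk RNA, fewer cells of a type and less RNA per cell cannot be told apart.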

How the data were processed

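The data are RNA-seq of cultured mouse chondrocytes (4 groups of 4 libraries), from a stranded mRNA kit per the labels' protocols. The authors deposited 1 table of FPKM per library. Trimmomatic, STAR and build GRCm38 are named in the submitters' processing notes; versions, the tool that made the FPKM, its annotation and its strand setting are not given in the sources used here. Nor are read numbers: spacing of the low FPKM values gave estimates of 15.6 to 21.8 M fragments per library, too uneven to recover counts, so no count test was run.

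FPKM were used as deposited. The 12976 genes that reached 1 FPKM in 4 or more libraries were fitted with limma 3.58.1 (R 4.3.3) on log2(FPKM + 1), 1 mean per group, trended variance, all 16 libraries together, two-sided, with Benjamini-Hochberg adjustment over all these genes. Fold changes on this scale understate those of low genes. The script was tested on simulated data. All 34 members passed the filter. Values per library are given for up to 4 core and 4 cap genes with the largest difference past the test in each comparison with vehicle and up to 3 in the other 2, for Psmb5, Psmb6, Psmb7, Psmd4 and Psmd14 always, and for up to 3 genes of each other list, Nfe2l1 and Pomp always. Some genes of these lists are not reported here. Members and lists were chosen with earlier results of these data known.

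Alternatives were 3 scalings, 2 pseudocounts, no filter and a mean of at least 5 FPKM, only the groups compared, a replicate block and leaving out each library. Removal of trends with transcript length or GC content, and addition of the FPKM of near-identical copies (blastn 2.17.0, at least 95% identity over at least 150 bases), were chosen after seeing the data. Gene positions are from GENCODE M21 (GRCm38), where 55104 of 55450 identifiers matched, and promoters from RefSeq. No 2 libraries of a group shared more than 0.00853% of their values at 1 FPKM or more.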

Additional observations from a re-analysis of the deposited data

Results flagged for a closer look

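In 6 of 140 groups of 4 libraries examined, 1 library lay far from the other 3, and chance gives about 1 group in 20. Psmb3 read 159 FPKM in bleomycin replicate 2, where the others rounded to 143. Psmb4 read 187 FPKM in bleomycin replicate 4, where the others rounded to 182. Psmd6 read 65.0 FPKM in doxorubicin replicate 3, below the others at 69.9 to 70.5. Psmd12 read 51.3 FPKM in IL-1β replicate 4, below 53.5 to 53.7. Psmd10 read 17.1 FPKM in vehicle replicate 1, above 15.5 to 15.7. The difference of the mean log2 FPKM of core and cap was 1.14 in IL-1β replicate 4, below 1.23 to 1.25 in the other IL-1β libraries. Psmb3, Psmb4, Psmd6 and Psmd12 passed no test in those comparisons with vehicle. All 4 IL-1β libraries of Psmd10 and all 4 IL-1β balances lay above every vehicle library.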

How the results depend on the processing

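Against vehicle, the core counts held within 1.5 times for doxorubicin under every alternative, and for bleomycin except with the length trend removed (8 lower). For IL-1β, 1 core gene was lower with median-of-ratios scaling, quantile normalization, or the length or GC trend removed, and 1, 2 and 3 cap genes were lower with median of ratios, quantile and length trend; quantile left 4 cap genes higher. Rescaling to a common sum gave 5 core genes higher and 3 lower, 1 cap gene higher and 12 lower, a cap median of -0.27, and turned Psmb7 (-0.17), Psmd9 (-0.05), Psmd4 (-0.29), Pomp (-0.04) and Zfand5 (-0.05). Psmb7 was -0.01 with the length trend removed, and Rps27a -0.10 after quantile normalization. Between the drugs, the 1 core call became 0 with each scaling, without the filter, with the block, with only the groups compared, and with each of the 3 added settings, and the 1 cap call became 0 with median of ratios, no filter, only the groups compared, and the length or GC trend removed. Against IL-1β, quantile normalization gave 1 cap gene higher and 8 lower for the mean of both drugs, and the length trend gave 1 core and 1 cap gene higher. Rescaling to a common sum gave 1 core gene higher and 8 lower, 13 cap genes higher and 1 lower, a cap median of 0.17, and turned Psmb7 (0.04), Psmd14 (0.22), Psmd4 (0.29), Pomp (0.18), Cct7 (0.01), Mafg (0.01) and Ubqln4 (0.03). The cause was not tested. Leaving out 1 library gave 4 to 5 core and 5 to 7 cap genes lower for bleomycin, 9 to 11 and 5 to 7 for doxorubicin, 12 to 13 core and 4 to 7 cap genes higher for IL-1β, 0 to 1 of each between the drugs, and 13 to 14 core and 12 to 16 cap genes lower for the drugs against IL-1β. The IL-1β minus vehicle balance of 0.20 (log2) was 0.26 without Psmd5, Psmd9 and Psmd10.

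Same-numbered libraries were not treated as paired in the main fit, so its tests leave any structure they share in the spread. Their deviations correlated above 0.1 in 6 of 24 pairs (-0.023 to 0.214). The 72 pairs with different numbers correlated at -0.195 to 0.099, 0 of them above 0.1, and 11 of 16 libraries correlated best with their own number, which is a hint of shared structure from the data and not from the design. With the replicate number as a block, 6 cap genes were higher with IL-1β and 15 lower for the drugs against IL-1β. The main limits are the absence of read counts, the scale and length shift of the IL-1β libraries, and controls that do not match the drug groups in culture time.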
